A study of Mus musculus with 2 samples.

Results

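The cells described here are monocyte-derived cells with high RNA levels of MHC class II, 162 of the 5022 tumor-infiltrating immune cells (TIIs) sequenced from melanomas that grew in *Maoa* WT or *Maoa* KO hosts. They were selected on their own RNA values, each scaled to 10000 unique molecular identifiers (UMIs, which count captured RNA molecules) per cell. The thresholds for a member included *H2-Aa* plus *H2-Ab1* of at least 50, *Ly6c2* of at least 1 and *Csf1r* plus *Ms4a6c* of at least 2, with the 3 *C1q* genes together below 10, *Ace*, *Treml4* and *Adgre4* together below 3, the 3 *Cd3* genes together at most 2, *Cd209a* below 3, *Xcr1* plus *Clec9a* at most 1 and *Siglech* below 3. The full rule gave 79 members among 2392 cells of the library labelled WT and 83 members among 2630 cells of the library labelled KO. High class II, presence of *Ly6c2*, *Csf1r* and *Ms4a6c*, and low levels of the other genes in the rule are therefore how the cells were found and not results.

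MHC class II molecules are pairs of an alpha and a beta chain that present peptides from engulfed material to CD4+ T cells. They are assembled with the invariant chain CD74, loaded with peptide by the H2-DM proteins and switched on by the transactivator CIITA, which interferon gamma induces. Classical monocytes, marked in the mouse by Ly6C and CCR2, enter tumors from the blood and can acquire class II as they differentiate toward macrophages or antigen-presenting cells.

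The tumor line, B16-OVA, is a melanoma of the C57BL/6 mouse made to express ovalbumin as a model antigen, and tumors were taken at day 14 after subcutaneous challenge. *Maoa* encodes monoamine oxidase A, an enzyme that degrades monoamines such as serotonin, and the question was how its loss alters immune cells in the tumor. The mice called KO carry a germline hypomorphic *Maoa* mutation, taken from a 129S strain and backcrossed to C57BL/6J, in all host cells, while the tumor cells do not. The study's methods give mice of 8 to 12 weeks, female unless stated otherwise. For each genotype live CD45.2+ cells from 10 combined tumors were sorted, 10000 of them were loaded for 3′ single-cell RNA-seq, and 1 library was made, so there is no replicate, no test was possible and the 95% intervals below cover counting error only.

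Members had a median of 10756 UMIs and 2695 genes in the library labelled WT (5773 to 22339 UMIs) and 9805 UMIs and 2456 genes in the library labelled KO (3145 to 33704 UMIs). All members together held 924743 and 875534 UMIs. Over all cells the libraries differed more in depth, with medians of 9887.5 and 6945.5 UMIs. Of 13 barcode sequences that occurred in both libraries, 0 were in members. *Maoa* had 0 UMIs in members of either library and 7 and 15 UMIs in the whole libraries labelled WT and KO, so its RNA does not bear out the labels and the libraries are named by label throughout. *Xist*, which female cells transcribe from the inactive X, had 0 UMIs in members of both libraries. The Y-linked gene *Eif2s3y* had 64 UMIs and 62 UMIs (69.2 and 70.8 CPM, a gene's share of all UMIs of the same cells on the usual CPM scale). In both libraries this is the RNA of male cells, although the study's methods give female mice unless stated otherwise.

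Members made up 3.30% of the WT-labelled cells (exact Clopper-Pearson 95% interval 2.62 to 4.10%) and 3.16% of the KO-labelled cells (2.52 to 3.90%), so the intervals overlap. With no *Cd3* UMI allowed the shares were 1.55% and 1.79%, and with every cell first thinned to 3000 UMIs they were 2.38% and 1.85%, so the order of the libraries depended on the rule. Of myeloid cells they were 9.90% (7.92 to 12.2% of 798 cells) and 9.21% (7.40 to 11.3% of 901 cells). Among monocytes that met every other threshold, at any class II level, members were 33.3% of 237 WT-labelled cells (27.4 to 39.7%) and 26.8% of 310 KO-labelled cells (21.9 to 32.1%), again with overlapping intervals. The remaining monocytes, those below the class II cutoff, numbered 158 and 227.

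The class II level of these monocytes spread from 0 to over 400 per 10000 with its fullest bin at 2 to 5, and 28 and 38 cells lay at 100 to 200 against 15 and 22 at 50 to 100. Just outside the cutoff, from 40 to 50, lay 5 cells of the library labelled WT (44.1 to 47.9) and 4 of the library labelled KO (42.8 to 48.4). Just inside it, from 50 to 60, lay 7 cells (51.2 to 59.3) and 4 cells (55.3 to 59.97). The cutoff thus passes through a continuous range. At the other thresholds, 14 and 15 members rested on 1 UMI of *Ly6c2*, and 42 and 36 members held a UMI of a *Cd3* gene (53.2% and 43.4%, against 46.2% and 37.4% of the monocytes below the cutoff).

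**Figure D1:**
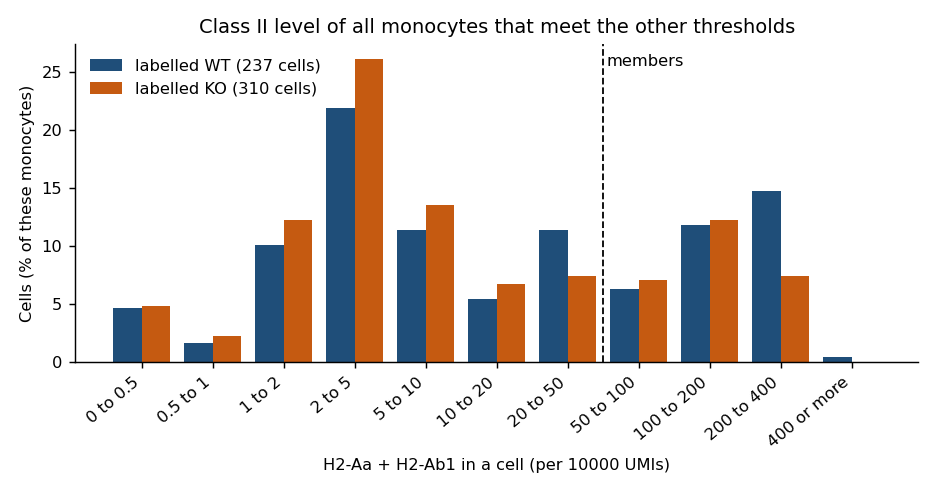
Share of monocytes meeting all thresholds but the class II one (y axis, % of 237 cells labelled WT and 310 labelled KO) by their H2-Aa plus H2-Ab1 level (x axis, per 10000 UMIs of a cell, bins of unequal width). Members lie right of the dashed line; the 200 to 400 bin held 14.8% of these cells in the library labelled WT and 7.42% in the library labelled KO.

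Of the 5 marker genes given for these cells, *H2-Ab1* was part of the rule and the other 4 were compared with the monocytes below the cutoff. *H2-DMb1*, a subunit of the peptide loading factor H2-DM, was higher in members, at 1212 and 1454 CPM (labelled WT and labelled KO, the order used throughout) against 207 and 269 CPM. *Qpct*, glutaminyl cyclase, was at 91.9 and 119.9 CPM against 29.6 and 71.1 CPM. *Gbp2*, an interferon-induced GTPase, was not higher in members, at 470.4 and 266 CPM against 584 and 583 CPM. The chemokine gene *Cxcl10* was at 659 and 212 CPM in members and 580.3 and 406 CPM in the monocytes below the cutoff, so it did not separate them in both libraries either.

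Members were set beside 3 classes chosen by similar rules: the 385 monocytes below the class II cutoff, 130 *Cd209a*-positive class II-high cells (26 and 104), and 467 *C1q*-high macrophages (269 and 198). T cells (833 and 955) served to show how much of a gene's RNA occurs in cells that should lack it. Since each rule fixes part of what separates the classes, these comparisons are descriptions. Among *Cd209a*-positive cells and members together, members were 75.2% of 105 WT-labelled cells (65.9 to 83.1%) and 44.4% of 187 KO-labelled cells (37.1 to 51.8%). That shift lay on the side of the *Cd209a*-positive cells, which were 1.09% (0.711 to 1.59%) and 3.95% (3.24 to 4.77%) of all cells of their libraries.

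Per gene, *H2-Aa*, *H2-Ab1*, *H2-Eb1*, *Cd74*, *H2-DMb1*, *H2-DMb2* and *Ciita* stood in the same order of classes in both libraries, highest in *Cd209a*-positive cells, then members, then *C1q*-high macrophages, then the monocytes below the cutoff. *Cd74*, the invariant chain, was at 26079 and 24877 CPM in members, 33169.9 and 35244 CPM in *Cd209a*-positive cells, 11474 and 8974 CPM in *C1q*-high macrophages and 2427 and 2518 CPM in monocytes below the cutoff. *H2-Eb1*, the beta chain of I-E, was at 6420.2 and 4767 CPM in members against 187 and 142 CPM below the cutoff. *Ciita*, the transactivator, had few UMIs, with 43.3 and 50.3 CPM in members, 149.9 and 116 CPM in *Cd209a*-positive cells and 9.42 and 8.96 CPM below the cutoff. *H2-DMb2*, the second H2-DM beta gene, was at 98.4 and 76.5 CPM in members and 424 and 440.2 CPM in *Cd209a*-positive cells, a wider gap than that of *H2-DMb1*, which was at 1372 and 1506 CPM there. The *H2-DMb* genes are close copies, so reads could be split between them. *H2-Oa*, a subunit of H2-O, which restrains H2-DM, was at 30.3 and 24 CPM in members and 173 and 191 CPM in *Cd209a*-positive cells. T cells, which should lack *Cd74*, held 344 and 446 CPM of it.

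The H2 genes lie together on chromosome 17. Class II promoters are known for a Y box, the site of the factor NF-Y. That of *H2-Aa*, a gene of the rule, is shown with that of *H2-Eb1*, which the rule did not use. *H2-Ab1*, the other class II gene of the rule, had no promoter entry. The Y box was searched as CTGATTGG on both strands in RefSeq promoters (250 bases before to 50 after the start, GRCm38.p6), where 4.10% of 32851 promoters held it, or 4.70% of genes. Of 18 genes in the class II list, 13 had a promoter entry and 4 of these (30.8%) held the motif. It was also in 5 of 15 genes of the sterol synthesis list (33.3%) and in the windows of *Cxcl9* and *Cxcl10*. The windows from 130 to 31 bases before the start are chr17:34287854-34287953 on the minus strand for *H2-Aa* and chr17:34305737-34305836 on the plus strand for *H2-Eb1*, with the Y box in capitals:
H2-Aa: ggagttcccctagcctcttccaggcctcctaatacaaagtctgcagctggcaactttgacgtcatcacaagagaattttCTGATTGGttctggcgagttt
H2-Eb1: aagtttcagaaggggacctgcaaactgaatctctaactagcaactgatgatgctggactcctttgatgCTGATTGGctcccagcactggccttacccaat
In the same window *H2-DMb1* and *H2-DMb2* each held a stretch with 1 mismatch to the 8 letters, and the nearest stretch of *H2-DMa* had 3 mismatches. A match is a description of letters and not evidence of binding.

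Along the whole class II range of the monocytes, binned by *H2-Aa* plus *H2-Ab1* at below 5, 5 to 20, 20 to 50, 50 to 100, 100 to 200 and at least 200, *Cd74*, *H2-DMa* and *H2-DMb1* were higher in each successive bin of the 6 in the library labelled WT. *Cd74* was at 621, 3076, 8022, 12692, 23244 and 32802 CPM there, and went from 1121 to 36528 CPM over the KO-labelled bins. *H2-DMb1* went from 89.7 CPM in the lowest to 1539 CPM in the highest bin and from 121 to 1629.7 CPM. It was higher in the library labelled KO in the middle bins, at 558 against 1198 CPM from 50 to 100. *H2-DMb2* was at 44.5 and 57.1 CPM from 100 to 200 and 167 and 149.6 CPM at 200 or more.

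**Figure D2:**
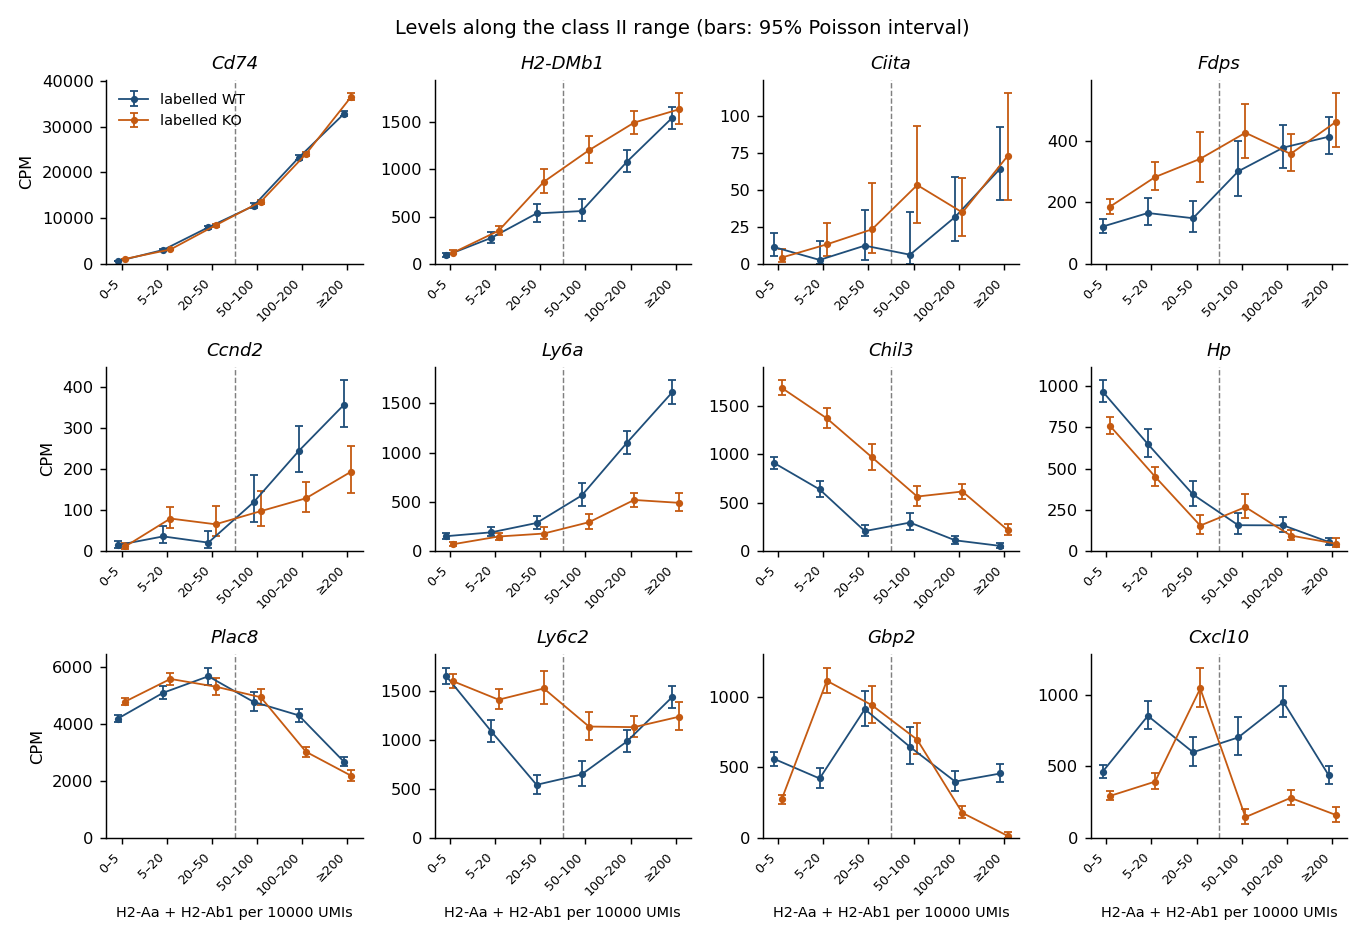
CPM (y axis) of 12 genes in monocytes grouped by H2-Aa plus H2-Ab1 (x axis, per 10000 UMIs), by library, with 95% Poisson intervals; the dashed line is the members' cutoff at 50. Cd74, H2-DMb1, Ccnd2 and Ly6a were higher toward the right and Chil3 and Hp toward the left, while Gbp2 and Cxcl10 had no common course in the libraries.

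Some monocyte genes were lower toward the top of the same range and others were not. *Chil3*, a chitinase-like lectin of Ly6C+ monocytes, was at 908 CPM in the lowest and 53.3 CPM in the highest class II bin of the WT-labelled cells, and at 1687 and 218 CPM in the same bins of the KO-labelled cells. *Hp*, haptoglobin, went from 966 to 55.5 CPM and from 759 to 44.5 CPM. *Plac8* was level over the first 4 bins, between 4192 and 5673 CPM for the WT-labelled cells, and reached 2680.1 and 2188 CPM in the top bin. *Ly6c2*, which the rule only required to be present, was at 1657 and 1602 CPM in the lowest and 1441 and 1241 CPM in the highest bin, with its WT-labelled low of 545 CPM in the 20 to 50 bin. *Ccr2*, the receptor for CCL2, was at 538 and 581 CPM in the lowest bin and 449 and 623 CPM in the highest. The top bin thus held *Ly6c2* and *Ccr2* RNA near the level of the lowest bin, and little *Chil3* and *Hp*.

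A few genes outside the class II list were graded upward. *Ly6a*, the surface protein Sca-1, went from 151 to 1609.8 CPM over the WT-labelled bins and from 70 to 489 CPM over the KO-labelled ones. *Ccnd2*, cyclin D2, went from 14.8 to 357 CPM and from 11.2 to 194 CPM. *Itgax*, the integrin CD11c, went from 6.81 to 66.6 CPM and from 13 to 80.9 CPM. *Fdps*, farnesyl diphosphate synthase of the sterol pathway, went from 121 to 413 CPM and from 186 to 461 CPM, and the summed sterol synthesis list from 706 to 1692 CPM and from 1072 to 1909 CPM. The interferon-inducible *Gbp2* had no such course. In the library labelled KO it was at 1114 CPM in the 5 to 20 bin and 16.2 CPM in the top bin, while in the library labelled WT it stayed between 400.2 and 912 CPM.

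Against the monocytes below the cutoff, 42 of 4577 genes with at least 100 UMIs were at least 2-fold higher in members of both libraries (0.918%) and 68 were at least 2-fold lower (1.49%). Of the class II list, 8 of 13 tested genes were higher by this measure, which the rule largely fixes. Of 29 classical monocyte genes 8 were lower and 0 higher, and of 37 type I interferon response genes and 22 interferon gamma response genes 0 passed in either direction. *Ly6a* (1255 and 452 against 182 and 104 CPM), *Ccnd2* (278 and 139 against 20.9 and 36.3 CPM) and *Axl*, a receptor for apoptotic cells (97.3 and 80 against 17.5 and 19.5 CPM), were among the 10 highest. *Itgax* was at 57.3 and 58.3 CPM against 10.8 and 15.3 CPM, and *Aif1*, the macrophage protein IBA1, at 890.0 and 763 CPM against 291 and 333 CPM.

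Several of the genes low in members are known from early monocytes, neutrophil granules or the acute phase. *Lcn2*, lipocalin 2, had 0 UMIs in members of both libraries against 114 and 11.6 CPM below the cutoff. *Saa3*, serum amyloid A3, was at 5.41 and 1.14 CPM against 379.7 and 29 CPM. *Hp* was at 107 and 124 CPM against 787 and 605 CPM, *Slpi*, a protease inhibitor, at 99.5 and 58.3 CPM against 859.7 and 357 CPM, and *Mgst1*, a glutathione transferase, at 36.8 and 73.1 CPM against 335 and 356 CPM. *Gsr*, glutathione reductase, from the classical monocyte list, was also low, at 142 and 131 CPM against 624 and 460.4 CPM. These 6 genes were lower in members of both libraries. Of the antioxidant and oxidant list, which does not hold *Gsr*, 0 of 20 tested genes were at least 2-fold lower and 0 higher. *Lcn2*, *Saa3* and *Slpi* also differed between the libraries below the cutoff, being higher in the one labelled WT. Neutrophil markers summed to 791 and 550.0 CPM below the cutoff against 168 and 45.7 CPM in members, with 1 monocyte labelled KO at 2570 per 10000, and their part in these values was not tested.

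Against *Cd209a*-positive cells, 187 of 3575 genes were at least 2-fold higher in members of both libraries (5.23%) and 84 lower (2.35%). Of the lists, 14 of 20 macrophage genes and 17 of 28 classical monocyte genes were higher and 0 lower, while 11 of 19 dendritic cell genes were lower. *Lyz2*, lysozyme, was at 11159 and 21316 CPM in members and 781 and 1786 CPM in *Cd209a*-positive cells. *Msr1*, the scavenger receptor A, was at 251 and 184 CPM against 0 and 2.29 CPM, *F10*, coagulation factor X, at 351 and 315 CPM against 17.3 and 10.7 CPM, and *C5ar1*, the C5a receptor, at 230.3 and 220.4 CPM against 2.88 and 4.58 CPM. *Clec10a*, a lectin of dendritic cells, was at 47.6 and 19.4 CPM in members against 565 and 615 CPM, *Ifitm1* at 347 and 163 CPM against 2534 and 1835 CPM, and *Flt3*, the receptor of dendritic cell precursors, at 3.24 and 13.7 CPM against 57.7 and 42 CPM. Beside the class II level that the rule set, members thus had little of the lectin and *Flt3* RNA of the *Cd209a*-positive cells.

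Against *C1q*-high macrophages, 110 of 6635 genes were at least 2-fold higher in members of both libraries (1.66%) and 298 lower (4.49%). Lower were 17 of 28 macrophage genes, *C1q* by the rule, and 18 of 20 cell cycle genes. *Ccl8* was at 29.2 and 17.1 CPM in members against 1347 and 1898 CPM, *Igf1*, insulin-like growth factor 1, at 2.16 and 6.85 CPM against 109.7 and 154 CPM, and *Cadm1*, an adhesion molecule, at 2.16 and 3.43 CPM against 62.8 and 77.3 CPM. *Ms4a7* was at 58.4 and 58.3 CPM against 385 and 481 CPM. Higher in members were 8 of 13 class II genes, 9 of 28 classical monocyte genes, 7 of 19 sterol genes and 6 of 37 type I interferon genes. *Napsa*, an aspartic protease, was at 337 and 417 CPM against 94.7 and 81.2 CPM, and *Ly6i* at 138 and 176 CPM against 28.7 and 30.6 CPM. *C1q*-high macrophages had higher medians of 15436 and 17055.5 UMIs per cell. Without cells above the 95th percentile of UMIs of their library the counts were 50 higher and 141 lower.

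**Figure D3:**
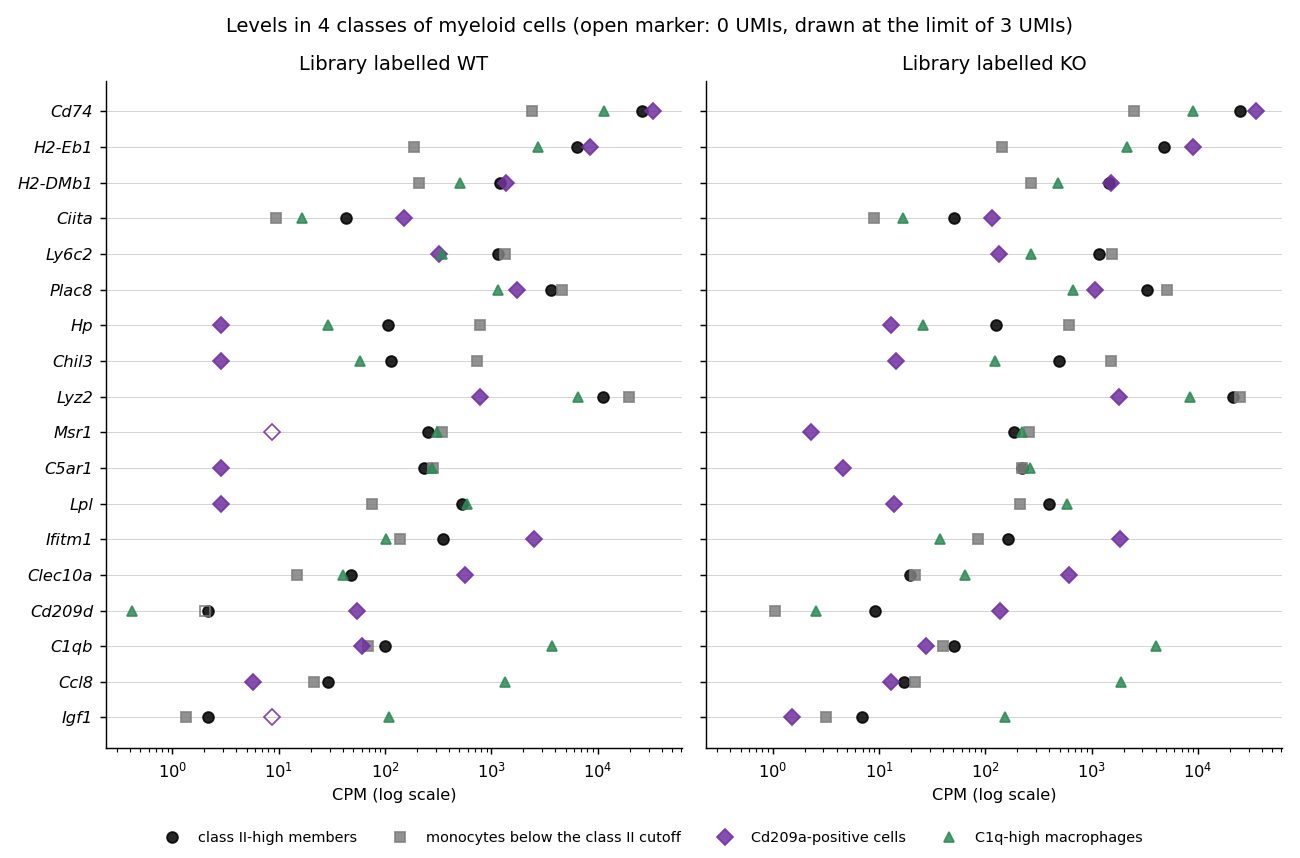
CPM (x axis, log scale) of 18 genes in 4 myeloid classes, 1 panel per library; open markers are genes with 0 UMIs drawn at the limit of 3 UMIs. Members (black) sat next to Cd209a-positive cells (purple) for Cd74, H2-Eb1 and H2-DMb1 and far from them, near the other 2 classes, for Msr1 and C5ar1.

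Members differed among themselves in *Lyz2*, one of several genes with wide ranges over the cells. Its per-cell level ran from 0 to 682 per 10000 with a median of 57.5 over the WT-labelled members, and from 1.54 to 557 with a median of 199.8 over the KO-labelled ones. Cells below 20, a limit set after the values were seen, were 21 of 79 WT-labelled members (26.6%, 17.3 to 37.7%) and 9 of 83 KO-labelled members (10.8%, 5.08 to 19.6%). Their median *H2-Aa* plus *H2-Ab1* level was 226 and 219 per 10000, against 163 and 147 in the other members. The genes below were also chosen after their values were seen.

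The members low in *Lyz2* held more RNA of several genes that were high in *Cd209a*-positive cells, although the rule kept *Cd209a* itself below 3. *Ifitm1* was at 1010 CPM below the *Lyz2* limit and 140 CPM above it in the library labelled WT, and at 934 and 65.6 CPM in the library labelled KO. *H2-DMb2* was at 278 and 42.6 CPM and at 365 and 39.9 CPM, and *Cst3*, cystatin C, at 6355 and 1985 CPM and at 5553 and 2701 CPM. *Cd83*, a maturation marker, was at 159 and 34.0 CPM and at 335 and 60.5 CPM. Lower below the limit were *Fn1*, fibronectin (0 and 166 CPM; 10.2 and 219 CPM), *Adgre1*, the macrophage protein F4/80 (22.7 and 125 CPM; 0 and 140.3 CPM), and *Ccl7* (164 and 1237 CPM; 20.3 and 1010 CPM). In both libraries the 21 and 9 cells thus held less RNA of these monocyte and macrophage genes than the other members.

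Within members, the library labelled KO was compared with the library labelled WT, which the rule did not use. Of 2181 genes with at least 100 UMIs, 13 (0.596%) were at least 2-fold higher and 60 (2.75%) at least 2-fold lower in the library labelled KO, around a median log2 ratio of −0.03. The type I interferon response list held 10 of the 60 lower genes. Of its 31 tested genes these 10 were at least 2-fold lower and 0 higher, with a median of −0.78 and 29 below 0. Over the members with *Lyz2* of at least 20 per 10000, 27 were tested and 6 were lower (median −0.60). The list's summed level was 17677 CPM in members labelled WT and 11758 CPM in members labelled KO (log2 ratio −0.59, −0.62 to −0.55).

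*Rsad2*, the antiviral enzyme viperin, had 687 UMIs in 36 members of the library labelled WT and 79 UMIs in 20 members of the library labelled KO, or 743 and 90.2 CPM, a log2 ratio of −3.03 (−3.40 to −2.70). *Ifit2* (149 and 29.7 CPM, −2.31), *Ifit3* (438 and 105 CPM, −2.05) and *Ifit1* (271 and 80 CPM, −1.76), which bind viral RNA or its translation machinery, shared the direction. *Isg15*, a ubiquitin-like modifier, was at 1387 and 634 CPM (−1.13, −1.28 to −0.99), and *Irf7*, the factor that amplifies type I interferon, at 736 and 355 CPM (−1.05, −1.25 to −0.86). These RNAs were thus lower in members of the library labelled KO by more than counting error. *Ifit3b*, *Cmpk2* and *Oasl1* had ratios of −2.76, −2.02 and −1.89, and *Ifit3* and *Ifit3b* share sequence, so their reads could be split between them. The abundant *Ifitm3* (5241 and 4504 CPM, −0.22) and *Ifi27l2a* (3100.3 and 2529 CPM, −0.29) differed little, and *Xaf1* (96.2 and 144 CPM, 0.58) and *Ifih1* (68.1 and 78.8 CPM, 0.21) were the 2 above 0.

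The same list had a median below 0 in the other myeloid classes and not in T cells. Of the genes tested, 6 of 36 were at least 2-fold lower in monocytes below the cutoff (median −0.50), 3 of 20 in *Cd209a*-positive cells (−0.48), 5 of 37 in *C1q*-high macrophages (−0.53) and 0 of 31 in T cells (0.05). Over all genes tested in these classes the lower ones were 2.29%, 1.71%, 1.85% and 2.26%, and the higher ones 0.745%, 0.908%, 0.651% and 1.04%. Its summed level in T cells, 2980 and 2381 CPM, had a ratio of the other sign from that median (−0.32), with *Ifi27l2a* at 1558 and 967 CPM. *Rsad2* had log2 ratios of −2.31 in monocytes below the cutoff and −1.85 in *C1q*-high macrophages, and *Isg15* of −0.93 in monocytes below the cutoff, against 0.13 in T cells. Whether the ratios in members differ from those in the other classes was not tested. The low ratio of *Rsad2* was not set by 1 cell, since without the cell with the most UMIs in each library it was −3.34.

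**Figure D4:**
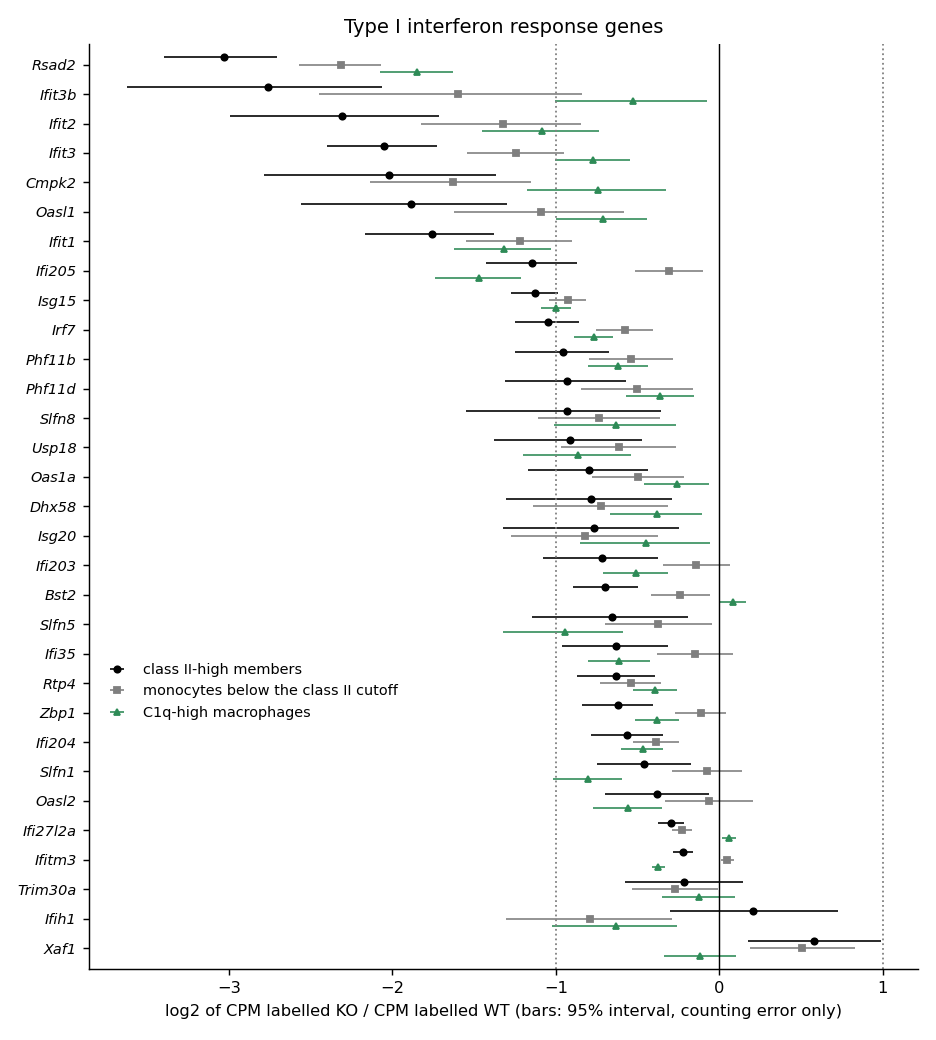
Log2 ratio of CPM in the library labelled KO to that in the library labelled WT (x axis, with 95% counting intervals; dotted lines at −1 and 1) for the 31 type I interferon response genes tested in members, in members and 2 other classes. In members 29 of 31 genes lie below 0 and 10 left of −1.

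The interferon-stimulated response element (ISRE), bound by interferon-activated STAT and IRF factors, was searched as GAAANNGAA on both strands. It was in 8.56% of all promoters (9.76% of genes) and in 21 of the 34 type I list genes with a promoter entry (61.8%). It was also in 14 of 22 genes of the interferon gamma list (63.6%) and 8 of 24 classical monocyte genes (33.3%). Windows of 100 bases, chosen after the values were seen, are shown for *Rsad2* (chr12:26456483-26456582, minus strand), *Isg15* (chr4:156200849-156200948, minus strand) and *Ifit1* (chr19:34640759-34640858, plus strand), with matches on either strand in capitals:
Rsad2: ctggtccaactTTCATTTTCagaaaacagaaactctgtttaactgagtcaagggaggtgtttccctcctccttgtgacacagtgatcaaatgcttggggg
Isg15: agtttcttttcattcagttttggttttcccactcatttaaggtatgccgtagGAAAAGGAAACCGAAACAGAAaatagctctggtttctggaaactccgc
Ifit1: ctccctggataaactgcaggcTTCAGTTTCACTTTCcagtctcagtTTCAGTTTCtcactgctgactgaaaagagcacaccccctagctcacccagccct
*Ifit3b* held 3 matches, beginning at −187, −153 and −134 from the start, none of them wholly inside this window. The promoters searched for *Ifit2*, *Cmpk2* and *Oasl1* held no match over their whole length, and these genes had ratios below −1 as well.

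Per cell, the summed type I list had a lowest value of 39.9, a median of 146 and a highest value of 669 per 10000 in members labelled WT, and 19.1, 101 and 400 in members labelled KO. The ranges overlapped widely, with the 10th percentile at 70.0 and 34.5 and the 90th at 393 and 211, so the whole distribution was lower and not its upper end alone. Of the 83 members labelled KO, 24 (28.9%, 19.5 to 39.9%) lay above the WT-labelled median. *Isg15* had per-cell medians of 6.91 and 2.32 per 10000. *Rsad2* was at 0 in most members of both libraries, with a 90th percentile of 30.5 and 2.02 per 10000.

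**Figure D5:**
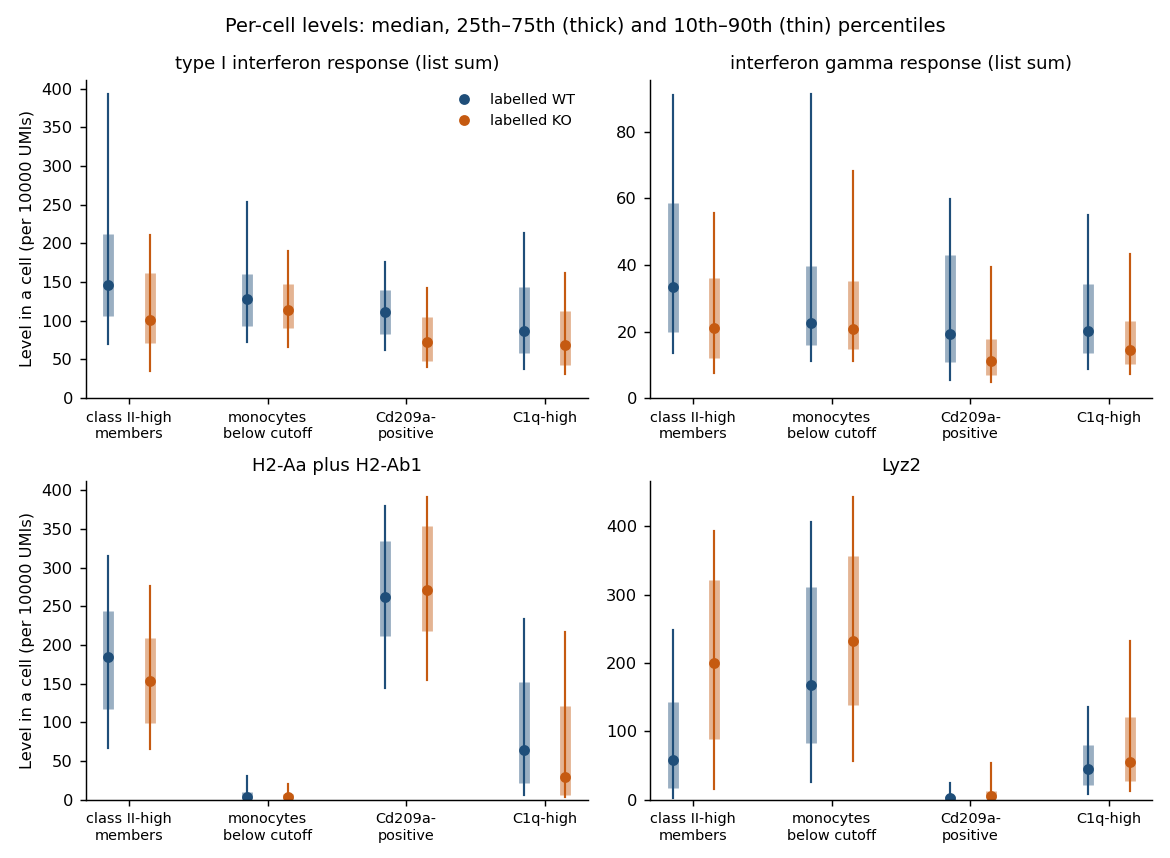
Per-cell levels (y axis, per 10000 UMIs of a cell) of 2 summed lists, H2-Aa plus H2-Ab1 and Lyz2 in 4 classes by library; points are medians, thick bars the 25th to 75th and thin bars the 10th to 90th percentiles over cells, which are not replicates. The members' type I interferon median is 146 in the library labelled WT and 101 in the library labelled KO, and their Lyz2 median is 57.5 and 199.8.

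Of the interferon gamma response list, 16 of 34 genes were tested. In the library labelled KO 5 were at least 2-fold lower and 0 higher (median −0.61), against 2.75% and 0.596% of all genes tested in members. *Cxcl10* (log2 ratio −1.63, −1.88 to −1.39) and *Cxcl9* (169 and 62.8 CPM, −1.42), chemokines that attract CXCR3+ T cells, and the GTPase genes *Gbp7* (148 and 45.7 CPM, −1.68), *Gbp3* (147 and 58.3 CPM, −1.33) and *Ifi47* (297 and 145 CPM, −1.03) were the 5. *Cxcl10* was found in 32 and 25 cells, and without the top cell of each library its ratio was −2.06. Over the members with *Lyz2* of at least 20 per 10000, 3 of 15 tested genes of the list were lower and 0 higher (median −0.60). *Cxcl9* was at 101 and 56.6 CPM in these members, less than 2-fold apart. *Irf1* (91.9 and 98.2 CPM, 0.10) and *Irf8* (201 and 203 CPM, 0.02), transcription factors of the interferon gamma pathway, were close to equal, and *Ifngr1*, the receptor's ligand-binding chain, was higher in the library labelled KO at 163 and 275 CPM (0.75). The *Ifngr1* ratio was 0.65 in T cells as well. Of this list, 0 of 19 genes were past 2-fold in the monocytes below the cutoff (median −0.32), where 2.29% of all tested genes were lower and 0.745% higher. In *Cd209a*-positive cells 3 of 15 were lower and 0 higher (median −0.66), against 1.71% and 0.908% of all tested genes. In *C1q*-high macrophages 3 of 25 were lower and 0 higher (−0.39), against 1.85% and 0.651%. In T cells 2 of 25 were lower and 1 higher (0.10), against 2.26% and 1.04%. The differences between the classes were not tested.

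Of 19 tested MHC class I genes, 18 had ratios below 0 with a median of −0.36, and 1, *H2-Q7* (192 and 74.2 CPM, −1.37), was past 2-fold. *H2-Q7* has close paralogs and its count is uncertain. *B2m*, the shared light chain, was at 6683 and 5190.0 CPM (−0.36, −0.42 to −0.31), *H2-K1* at 1214 and 905 CPM (−0.42), and the peptide transporter gene *Tap1* at 282 and 188 CPM (−0.58). In the monocytes below the cutoff, *B2m* and *H2-K1* had ratios of 0.02 and 0.10, and 9 of 20 tested class I genes were below 0 (median 0.02). In *Cd209a*-positive cells 17 of 18 were below 0 (median −0.36), and in *C1q*-high macrophages 20 of 23 (−0.22), so lower class I RNA was not particular to members. In T cells 12 of 23 were below 0 (−0.03). Whether the class I ratios differ between members and the monocytes below the cutoff was not tested.

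The class II genes themselves differed little between libraries, 0 of 10 being past 2-fold (median −0.25). The rule required *H2-Aa* plus *H2-Ab1* of at least 50 in every member of both libraries, so this similarity was partly fixed by the selection. *H2-Eb1* was lower in the library labelled KO (log2 ratio −0.43, −0.49 to −0.37), *Cd74* nearly equal (−0.07), and *H2-DMb1* and *H2-DMa* higher (0.26 and 0.20). *H2-DMa* was at 1057 and 1215 CPM. Of the proteases known to cut the invariant chain and antigens, *Ctss* was at 3554 and 2974 CPM (−0.26), *Lgmn* at 1026 and 661 CPM (−0.63) and *Ctsl*, from the macrophage list, at 360.1 and 144 CPM (−1.32). *H2-Aa* plus *H2-Ab1* had per-cell medians of 184 and 153 per 10000, both above the cutoff of the rule.

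The classical monocyte gene *Lyz2* was higher in members of the library labelled KO, and the rest of its list had nearly the same summed level in both. With *Lyz2* the list's summed level was 31501 and 41564 CPM (log2 ratio 0.40, 0.38 to 0.42), of which *Lyz2* gave 11159 and 21316 CPM (0.93, 0.90 to 0.97). Without *Lyz2* the sum was 20342 and 20248 CPM (−0.01, −0.04 to 0.02). Of 26 tested genes, 2 were at least 2-fold higher and 0 lower, with a median of 0.12. Of 83 members labelled KO, 69 (83.1%, 73.3 to 90.5%) lay above the WT-labelled *Lyz2* median. *Chil3* was at 115 and 490.0 CPM (2.09, 1.79 to 2.42), and its ratio was 1.06 in monocytes below the cutoff and 1.09 in *C1q*-high macrophages. *Vcan*, versican, was at 57.3 and 103 CPM (0.84) and *Fn1* at 127 and 195 CPM (0.62), while *Ccr2* (0.10), *Ly6c2* (0.02) and *Plac8* (−0.13) were close to equal. Since members low in *Lyz2* were more frequent in the library labelled WT, the type I list was also counted over the members with *Lyz2* of at least 20, as given above. *Lyz1* had 6 and 249 UMIs, 158 of them in 1 cell of the library labelled KO, and is a paralog of *Lyz2*, so its ratio of 5.34 is uncertain.

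Single genes higher in the library labelled KO had varied roles. *Eps8*, an actin regulator, was at 20.5 and 129 CPM (log2 ratio 2.62), with 2.66 in monocytes below the cutoff and 0.09 in T cells. *Il1b*, the cytokine interleukin-1 beta, was at 367 and 1002 CPM (1.45), or 1.19 without the top cells, 1 of which held 212 of 877 UMIs, and its antagonist gene *Il1rn* was at 492 and 175 CPM (−1.49). *Il1r2*, the decoy receptor, was at 132 and 16 CPM (−3.00, −3.96 to −2.24). *Nr4a1*, an orphan nuclear receptor (35.7 and 102 CPM), and *Nab2*, a corepressor of early growth response factors (32.4 and 102 CPM), were higher, as were *Rab7b*, *Ypel3* and *Slc38a2* at ratios of 1.32, 1.36 and 1.31. *Apoe*, the lipid carrier, was at 539 and 1200.4 CPM (1.16) and had ratios of 1.60 in monocytes below the cutoff and 1.09 in *C1q*-high macrophages.

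The heat shock gene *Hspa1a* was at 299.5 and 862 CPM in members (1.52), in 19 and 26 cells, with 182 of the 755 UMIs labelled KO in 1 cell, and shares reads with its copy *Hspa1b*. Among 14 tested immediate early and heat shock genes *Hspa1a* was the 1 past 2-fold upward and *Jund* the 1 downward (296 and 116 CPM, −1.34). *Jund* had a ratio of −1.55 in T cells, so its difference was not particular to members. *Snx20* (135 and 28.6 CPM in members, −2.22) likewise had a ratio of −2.56 in T cells. *Cap1* (407 and 113 CPM, −1.84) and *Gdpd3* (103 and 30.8 CPM, −1.72), from 5 genes picked earlier from these libraries because they differed in most cell classes, had ratios of −2.13 and −5.19 in T cells. *Ly6a* was at 1255 and 452 CPM (−1.47), with −0.49 in T cells and −1.35 in *Cd209a*-positive cells. *AA467197* was at 230.3 and 50.3 CPM (−2.18), with −0.78 in T cells. *Pf4*, platelet factor 4, had 160 of its 232 UMIs labelled WT in 1 cell, so its ratio of −3.57 became −2.06 without the top cells.

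Of 13 chemokine genes tested, 6 were at least 2-fold lower in the library labelled KO and 0 higher (median −0.96). Over all genes tested in members the shares were 2.75% and 0.596%. *Cxcl9* and *Cxcl10* are in this list and in the interferon gamma list and count among the lower genes of both. In the monocytes below the cutoff 7 of 14 chemokine genes were lower and 0 higher, also with a median of −0.96, against 2.29% and 0.745% of all tested genes. Without the cell with the most UMIs of each gene in each library, 5 were lower and 1 higher in members (median −0.40). Over members with no *Cd3* UMI, 4 of 11 were lower and 3 higher with a median of 0.03, so the direction of the list depended on this limit. *Ccl4*, a CC chemokine gene, was at 527 and 163 CPM (−1.69, −1.97 to −1.42) and *Ccl12*, a CCR2 ligand, at 389 and 135 CPM (−1.53). *Ccl5* was at 532 and 146 CPM (−1.86), or −1.40 without the top cells, 1 of which held 184 of 492 UMIs. *Ccl24* rested on 1 cell of the library labelled WT with 93 of 96 UMIs, and its ratio was 2.48 without the top cells. *Ccl2* (1496 and 1781 CPM, 0.25), *Ccl7* (982 and 899 CPM, −0.13) and *Cxcl2* (738 and 855 CPM, 0.21), by contrast, were close to equal in members and had ratios of −1.16, −1.84 and −0.81 in monocytes below the cutoff. These 3 genes attract monocytes or neutrophils, and whether their ratios differ between the classes was not tested.

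Of 8 tested costimulatory and coinhibitory ligand genes, 2 were at least 2-fold lower in the library labelled KO. *Cd40*, through which T cells license antigen-presenting cells, was at 133 and 51.4 CPM (−1.36, −1.90 to −0.87), and *Slamf7* at 155 and 65.1 CPM (−1.24). *Cd86*, the ligand of CD28, was at 204 and 139 CPM (−0.55), and *Cd274*, encoding PD-L1, at 73.5 and 28.6 CPM (−1.35) with 93 UMIs in all, under the 100 needed to be tested. *Fcgr4*, an activating Fc receptor gene, was at 304 and 116 CPM (−1.38) and the 1 of 10 genes in its list past 2-fold. *Fcgr1* was at 707 and 442 CPM (−0.68), and *Fcgr2b* (567 and 435 CPM, −0.38), *Fcer1g* (4488 and 4078 CPM, −0.14) and *Sirpa* (217 and 232 CPM, 0.09) differed less. Of the 6 tested genes that the study names in tumor-associated macrophages, *Chil3* was past 2-fold and 0 others were. These 6 include *H2-Aa* and *H2-Ab1*, whose ratios within members were partly fixed by the rule. *Mrc1* (45.4 and 37.7 CPM, −0.26) and *Tnf* (34.6 and 49.1 CPM, 0.50) had under 100 UMIs, and *Il6* had 0 UMIs in both libraries, which allows up to 3 UMIs in each.

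Redox, JAK-STAT and sterol genes showed small ratios. Of 14 antioxidant and oxidant genes 0 were past 2-fold (median −0.05), with *Prdx5*, a peroxiredoxin, at 894 and 1196 CPM (0.42), *Gpx1* at 1327 and 1285 CPM (−0.05), the NADPH oxidase gene *Cybb* at 368 and 353 CPM (−0.06) and *Hmox1*, heme oxygenase, at 603 and 405 CPM (−0.57). Of 7 JAK and STAT pathway genes 0 passed, with *Jak1* at 99.5 and 91.4 CPM, *Stat3* at 82.2 and 99.4 CPM and *Stat6* at 47.6 and 48 CPM. *Il4ra*, the IL-4 receptor chain, was at 88.7 and 53.7 CPM (−0.72). Sterol genes summed to 1571 and 1801 CPM (0.20, 0.09 to 0.30), with *Cyp51* (104 and 175 CPM, 0.75) and *Sqle* (60.6 and 103 CPM, 0.76) higher and *Fdps* (382 and 404 CPM, 0.08) with an interval that includes 0. Their sums in monocytes below the cutoff were 820 and 1226 CPM. Cell cycle genes summed to 1145 and 1093 CPM in members, a ratio of −0.07 (−0.19 to 0.06).

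Of 19 tested macrophage genes 1 was at least 2-fold higher (*Apoe*) and 2 lower (*Pf4* and *Ctsl*) in the library labelled KO, with a median of −0.22. Of 18 genes of a list on hypoxia and hypoxic macrophages 2 were lower, *Ero1l*, an endoplasmic reticulum oxidase (171 and 81.1 CPM, −1.07), and *Ndrg1* (106 and 51.4 CPM, −1.04), while the glycolytic *Gapdh* was at 2835 and 2843 CPM. Of 6 dendritic cell genes 0 passed (median −0.07), with *Itgax* at 0.02 and *Clec4a1*, a C-type lectin gene, at 325 and 279.8 CPM. Of 5 chemokine receptor genes 0 passed (median −0.50), and of 5 cytokine genes *Il1b* was higher and *Il1rn* lower, while *Tgfb1* was at 464 and 531 CPM.

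Markers of other cell types were low in members. T cell markers summed to 168 and 109 CPM, against 6161 and 5572 CPM in T cells, and melanoma markers to 24.9 and 16.0 CPM. NK markers summed to 629 and 214 CPM, of which *Ccl5* gave 532 and 146 CPM. Neutrophil markers summed to 168 and 45.7 CPM, and B cell markers to 3.24 and 41.1 CPM. The neutrophil genes *S100a8* (51.9 and 3.43 CPM) and *S100a9* (62.7 and 1.14 CPM) were also at 169.7 and 4.76 CPM and at 129 and 6.57 CPM in T cells, which should lack them. The part of these RNAs in the other results was not tested.

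Over the members of a library, the 2 interferon lists were correlated and class II was only weakly correlated with either. The Spearman correlation of the summed type I and interferon gamma lists was 0.57 over 79 cells labelled WT and 0.59 over 83 cells labelled KO. For *H2-Aa* plus *H2-Ab1* it was −0.20 and −0.14 with the type I list and −0.06 and −0.14 with the interferon gamma list. The correlation with a cell's UMIs was −0.27 and −0.01 for the type I list and 0.22 and 0.16 for class II. All points of a library share its preparation, and class II was cut by the rule, so these values describe the cells and carry no test.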

How the data were processed

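The files hold single-cell RNA-seq of sorted TIIs, 1 library per genotype. The authors made Chromium 3′ V2 libraries, counted UMIs with Cell Ranger (genome mm10, per the submitters' processing notes; versions not given in the sources used here), aggregated both libraries and filtered and normalised cells in Seurat. Although called raw counts, the values the authors deposited are natural log values (ln of 1 plus UMIs scaled to 10000 in a cell) for 17232 genes and 5022 cells. After exponentiation, division by the smallest nonzero value of a cell recovered UMIs as whole numbers in 100% of nonzero entries (tolerance 0.01). Cells were assigned to libraries by barcode suffix. The authors state no doublet removal, and none was done here.

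Members follow the thresholds in the report. A further threshold of the rule was applied, and it and some genes of the lists are not reported here. Members, classes and gene lists were chosen with earlier results of these data known. UMIs were summed per class and library and given as CPM with exact Poisson intervals, shares with Clopper-Pearson intervals, and log2 ratios of the library labelled KO to that labelled WT with 0.5 UMIs added and exact conditional binomial intervals, all at 95% and for counting error only. Genes needed at least 100 UMIs to be compared, and a count of 0 was given the limit of 3 UMIs. Against other classes, a gene counted when past 2-fold in both libraries. With 1 library per genotype no test, p-value or standard error was computed. The study's test over cells was not used, since cells are not replicates. Named were the rule and marker genes, the 10 genes with the largest ratio in each direction per comparison (between libraries, with separate Poisson intervals), list genes with at least 50 UMIs in members and the genes the study names in tumor-associated macrophages; genes of the *Lyz2* split and of the interferon promoters were chosen after their values were seen. Of the list genes, 17 were not found by symbol and were not analysed here.

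Alternatives covered the class II cutoff (40 and 75), the *Ly6c2* and *Cd3* limits, thinning, minimum UMIs, added UMIs, scaling, cell weighting, deep cells and shared barcodes, and, added later, the top cell per gene and *Lyz2*. The intervals were tested on simulated counts. Promoters are RefSeq's, GRCm38.p6, matched by symbol. Python 3.11.15, numpy 2.4.6, scipy 1.17.1 and matplotlib 3.10.9 were used.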

Additional observations from a re-analysis of the deposited data

Results flagged for a closer look

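The ratio of the KO-labelled to the WT-labelled library pointed opposite ways in members and in another class for 2 genes, with intervals that leave out 0 on both sides. *Hspa1a* had a log2 ratio of 1.52 in members (1.32 to 1.73, and 1.48 without the cell with the most UMIs in each library), −2.42 in *Cd209a*-positive cells (−2.88 to −1.96, from 99 and 70 UMIs) and −1.27 in *C1q*-high macrophages (−1.44 to −1.11). *Ccl24* had a log2 ratio of −1.10 in members (−1.67 to −0.58) and 1.09 in *C1q*-high macrophages (0.89 to 1.29). The *Ccl24* value in members rested on 1 cell with 93 of 96 UMIs of the library labelled WT and was 2.48 without the top cells. With 1 library per genotype the difference between classes was not tested for either gene.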

How the results depend on the processing

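Beside the values in the report, 15 alternatives were computed as planned and 3 were added after the data were seen. Of 5904 values of single genes and list medians under them, 5590 kept to the limit set for each, 310 moved beyond it and 4 that were past 2-fold turned. *Ccl24*, lower in members labelled KO, took a log2 ratio of 4.22 with a cutoff of 75, 3.48 with no *Cd3* UMI and 2.48 without the top cells. The other was *Ppbp*, lower in members than in monocytes below the cutoff, which in the library labelled KO took a log2 ratio of 4.82 with *Ly6c2* of at least 2. Of list medians under 2-fold, 4 changed sign, those of chemokines (0.03), classical monocyte genes (−0.10) and redox genes (0.02) with no *Cd3* UMI and that of sterol genes (−0.05) with *Ly6c2* of at least 2. Requiring *Ly6c2* of at least 2 made members 2.47% of all and 7.39% of myeloid cells labelled WT and 2.40% and 6.99% labelled KO. Thinning every cell to 3000 UMIs first gave 2.38% of all cells labelled WT and 1.85% labelled KO (6.15% of myeloid cells), and allowing no *Cd3* UMI gave 1.55% and 1.79%. Between libraries, genes at least 2-fold lower and higher in members labelled KO numbered 110 and 36 with a minimum of 50 UMIs, 36 and 5 with 200 UMIs, and 1659 and 1692 with no minimum. The type I interferon genes at least 2-fold lower were 6 with a minimum of 200 UMIs and 6 over members with *Lyz2* of at least 20, in place of 10. They were 15 with a class II cutoff of 75 and 14 by per-cell means. Thinning 74 and 71 members to 7000 UMIs left 7 genes higher. Against monocytes below the cutoff, 69 genes were higher with 50 UMIs, 25 with 200 UMIs, and 40 were lower with 5 UMIs added. Against *Cd209a*-positive cells 167 were lower with 50 UMIs and 53 with 200 UMIs. Against *C1q*-high macrophages 457 were lower with 50 UMIs, 191 with 200 UMIs, 139 with 5 UMIs added and 141 without cells above the 95th percentile of UMIs, and 61 were higher by per-cell means and 50 without those deep cells. Higher minimums test fewer genes, and for the other settings the cause was not tested. No paired analysis was possible because each genotype has 1 library. With 79 and 83 members, genes of under 100 UMIs have wide intervals, and counting error is the only error covered.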
